A study of Mus musculus with 8 samples.

Results

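The unfolded protein response and the integrated stress response were followed through 32 listed genes, taken as the rows of the deposited table that carry one of their symbols. These were 33 of 54532 rows, because Ddit3 has a second entry that is listed at 0 in every library, and Ddit3 below means the entry with reads. The genes were sorted, from textbook knowledge of their regulators, into an ATF6 arm of 13, an XBP1 arm of 11 and an ATF4 arm of 8. The cells were mouse bone marrow-derived macrophages (BMDM), grown from marrow progenitors, and RNA sequencing gave 8 libraries. WT_con and KO_con are the groups that got no LPS, WT_M1 and KO_M1 those carrying the M1 label, with 2 libraries each, and KO stands for loss of the ETS transcription factor ELF1. LPS, a bacterial membrane component sensed by TLR4, was applied for 6 h per the study's design. The M1 label was read as that arm, since no other stimulus is named. The labels give no strain, age, sex or type of knockout allele, and do not say whether ELF1 is lost in macrophages alone or whether libraries of a group come from separate mice. The p-values therefore measure the spread between these libraries, which may be technical.

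When client proteins crowd the endoplasmic reticulum (ER), sensors in its membrane start the unfolded protein response. ATF6 is cut in the Golgi and its freed part switches on ER chaperones. IRE1, made from Ern1, splices Xbp1 mRNA, and the spliced product drives genes of folding and of ER-associated degradation (ERAD), which returns misfolded proteins to the cytosol. PERK, made from Eif2ak3, phosphorylates the initiation factor eIF2alpha, as do other kinases of the integrated stress response, and this favours translation of ATF4, which drives amino acid supply genes and the death-linked factor CHOP (Ddit3). ATF6 and IRE1 activity and Xbp1 splicing act on proteins or splice forms, so a total per gene does not measure them. In macrophages, TLR signals are known to engage IRE1 and, under ER stress, to hold back CHOP.

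The deposited FPKM values (reads per gene length and library size) carried whole reads, which summed to 15753259 to 18058974 per library. The libraries were scaled so that the median tested gene hardly moved with LPS: its log2 change was 0.04 in WT and 0.02 in KO-labelled libraries, against -0.48 and -0.37 when the same reads were scaled to their totals. With that scaling 25.3% of all calls in WT and 26.4% in KO-labelled libraries were rises, against 52.6% and 52.7% as deposited. The members took 0.540 to 0.600% of all reads without LPS and 0.399 to 0.426% with it. Changes below are as deposited, on log2(FPKM + 1), given as log2 ± SE from limma with a Benjamini-Hochberg adjusted p, and 0.05 was the limit below which a gene was said to pass. FPKM is given per library or as mean ± SD with n = 2. Elf1, the gene of the KO label, was read at 12.4 and 14.1 FPKM in WT_con, 16.9 and 16.1 in KO_con, 21.9 and 22.4 in WT_M1 and 16.5 and 17.9 in KO_M1. Both KO_con libraries were above both WT_con libraries (0.30 ± 0.07, adjusted p = 0.0699). The difference passed as higher under TPM, total-read, quantile and voom settings, at 0.36 to 0.39 (adjusted p = 0.00115 to 0.0473). Both KO_M1 libraries were below both WT_M1 libraries (-0.35 ± 0.07, adjusted p = 0.0133). That call ended under all 4 other scalings, at -0.20 to -0.14 (adjusted p = 0.110 to 0.205), and it also ended when either WT_M1 library or KO_M1 1 was left out (0.0507 to 0.0728). Since the table has no values per exon, a shortened transcript would not be seen, and KO is used below as a label. Of 8 macrophage markers (among them Adgre1, Csf1r and Lyz2) none was under 1 FPKM throughout, and their summed level was 7664 to 10508 FPKM per library. The T cell markers summed to at most 0.171 FPKM and the plasma cell genes Jchain and Mzb1 were under 1 FPKM in every library. Of the other marker lists, 4 of 6 dendritic cell genes, 6 of 8 neutrophil genes, 7 of 8 B and plasma cell genes and 3 of 5 fibroblast genes were under 1 FPKM in every library. The fibroblast sum was 2.92 to 11.2 FPKM in WT_con, 0.546 to 2.83 in KO_con, 2.35 to 9.08 in WT_M1 and 0.673 to 1.06 in KO_M1, mostly Col1a1. The B and plasma cell sum was 34.6 to 35.1 FPKM in WT_con, 21.1 to 21.5 in KO_con, 75.8 to 84.2 in WT_M1 and 119 to 120.1 in KO_M1, nearly all of it Sdc1, which macrophages also express. For dendritic cells the sum, mostly Ccr7 where LPS was given, was at most 0.978 FPKM in untreated libraries, while WT_M1 had 4.18 to 4.46 and KO_M1 had 7.42 to 8.49. The part of such cells in the results below was not tested. Fewer cells of a type and less RNA per cell cannot be told apart in such bulk libraries.

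The promoters hold letters that known regulators of these genes read. RefSeq promoters of build GRCm38.p6 (the mm10 genome), from 250 bases before to 50 bases after each start, were at hand for 28 of the 32 members in 29 windows; Atf6, Derl1, Hyou1 and Manf had none. The ER stress response element (ERSE), read by ATF6 and XBP1 together with NF-Y, was searched as CCAAT, then 9 bases of any kind, then CCACG, on both strands. It lay in the windows of 9 members (Calr, Canx, Creld2, Derl3, Dnajc3, Hsp90b1, Hspa5, Pdia6 and Syvn1), against 0.119% of 32851 mouse promoter windows. Its variant ERSE-II, ATTGG and CCACG parted by 1 base, lay in those of Dnajb11 and Herpud1, against 0.0365%. The core of the amino acid response element read by ATF4 with C/EBP factors, TGATGNAA, lay in those of Asns, Chac1, Herpud1 and Trib3, against 3.97%. An ETS site of the kind ELF1 binds, CCGGAAGT, lay in that of Ddit3, against 3.89%. Matches are letters in a window, not measured binding. The Hspa5 promoter up to its start is shown whole because Hspa5 rose with LPS and was lower in KO_M1, and shorter stretches follow for members that rose or fell with LPS. All are written 5′ to 3′ in the direction of the gene with the motif's fixed bases in capitals, and a motif on the opposite strand appears as its reverse complement. The first Herpud1 stretch holds ERSE-II and the second, like those of Asns and Chac1, the TGATGNAA core.
Hspa5 chr2:34771840-34772089 (plus strand): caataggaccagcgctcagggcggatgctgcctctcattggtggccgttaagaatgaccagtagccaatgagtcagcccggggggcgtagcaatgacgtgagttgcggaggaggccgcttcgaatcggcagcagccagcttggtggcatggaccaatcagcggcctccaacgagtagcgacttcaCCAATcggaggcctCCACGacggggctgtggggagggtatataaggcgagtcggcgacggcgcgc
Calr chr8:84847063-84847105 (minus strand): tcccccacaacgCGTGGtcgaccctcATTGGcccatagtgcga
Canx chr11:50325788-50325830 (minus strand): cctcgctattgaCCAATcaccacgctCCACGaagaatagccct
Dnajc3 chr14:118937815-118937857 (plus strand): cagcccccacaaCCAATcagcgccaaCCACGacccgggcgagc
Syvn1 chr19:6046520-6046562 (plus strand): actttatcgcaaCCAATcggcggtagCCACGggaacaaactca
Herpud1 chr8:94386365-94386399 (plus strand): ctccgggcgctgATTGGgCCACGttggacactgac
Herpud1 chr8:94386305-94386336 (plus strand): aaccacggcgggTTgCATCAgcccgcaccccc
Asns chr6:7693213-7693244 (minus strand): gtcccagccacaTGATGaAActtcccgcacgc
Chac1 chr2:119351037-119351068 (plus strand): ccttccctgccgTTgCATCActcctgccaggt

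Without LPS, chaperones and their partners were the most abundant members. Calr (calreticulin, a lectin chaperone) stood highest, at 241 to 264 FPKM over the 4 libraries, followed by Hspa5 (BiP, the main ER HSP70) at 128 to 139.5 FPKM and Pdia3, a disulfide isomerase that works with the lectin chaperones, at 113 to 125 FPKM. These 3 ranges did not overlap. With LPS the order turned, and Hspa5 stood first at 207 to 311 FPKM while Calr read 169 to 177 FPKM. Among the sensors, Ern1 ranged over 8.06 to 12.8 FPKM in the 8 libraries, Atf6 over 11.9 to 14.0 FPKM and Eif2ak3 over 1.62 to 6.78 FPKM. The transcription factor genes Xbp1 (33.3 to 44.1 FPKM) and Atf4 (30.5 to 126 FPKM) stood above all 3 sensors in every library. Derl3, a Derlin of secretory tissues, stayed at 0.0450 to 0.294 FPKM (2 to 12 reads) and was not tested. Chac1, a glutathione-degrading enzyme, passed the filter on low values through its LPS libraries alone, so its change with LPS was bound to be large. The other 30 members passed it without that condition.

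**Figure D1:**
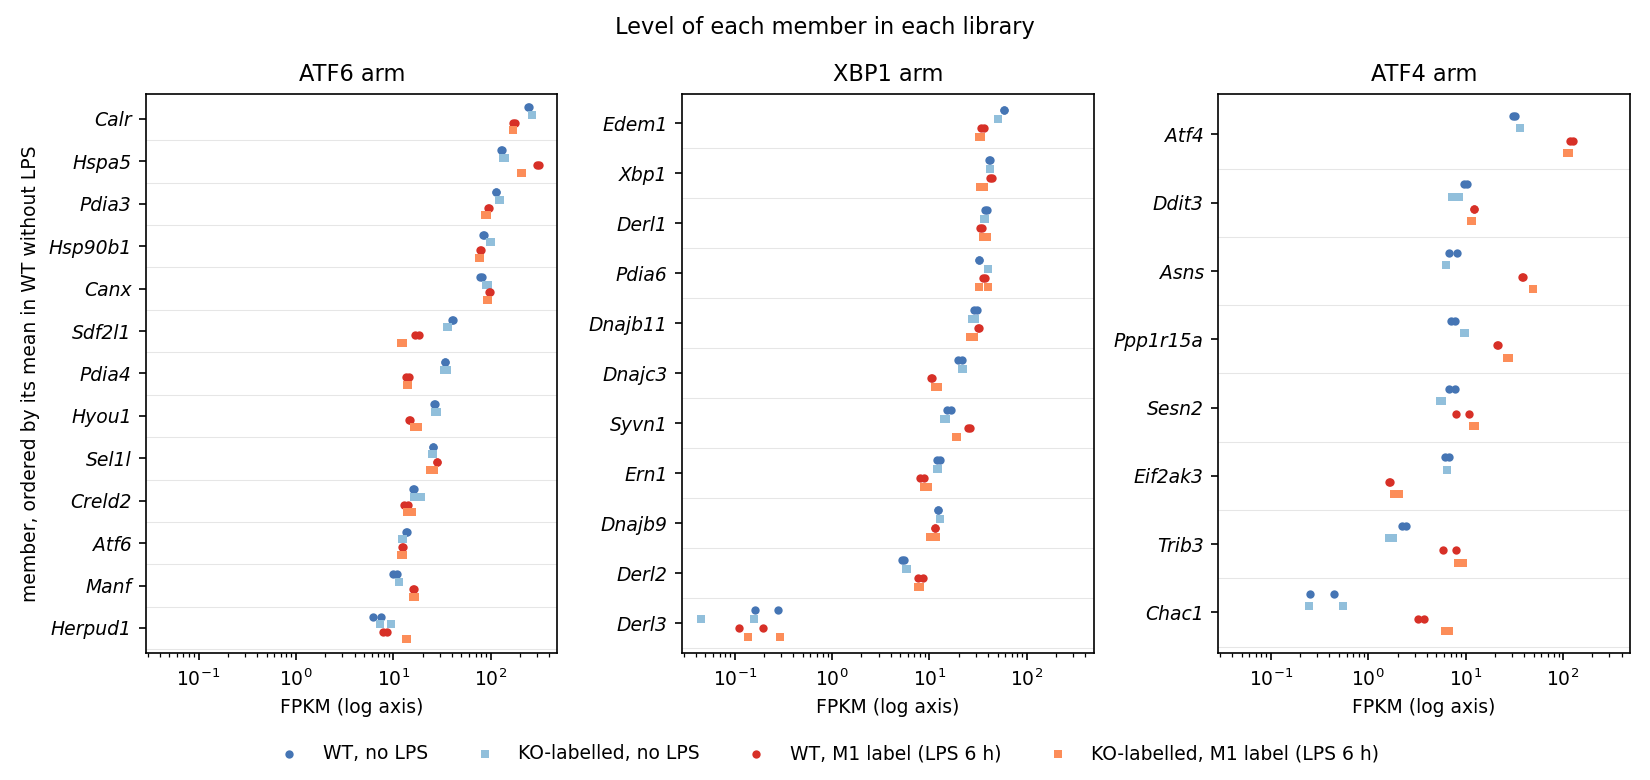
FPKM of each member in each library (log axis), by arm, with circles for WT and squares for KO-labelled libraries, blue without and red to orange with LPS. Atf4, Asns, Ppp1r15a, Trib3 and Chac1 lie further right with LPS in all 4 libraries, while Pdia4, Sdf2l1, Hyou1, Dnajc3 and Eif2ak3 lie further left.

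Most of the ATF4 arm rose with LPS, while the gene of its upstream kinase PERK fell. In WT, 6 of 8 members rose and 1 fell, with a median log2 change of 1.33 against 0.04 over all genes tested. In KO-labelled libraries 7 rose and 1 fell, with a median of 1.49. Over all genes 37.7% passed as higher and 33.9% as lower in WT, and 34.7% and 31.2% in KO-labelled libraries. With total-read scaling, 5 of the 8 rose and 2 fell in WT, and 6 rose and 1 fell in KO-labelled libraries. Among all 12137 genes tested with that scaling, 2454 rose and 7236 fell in WT, and 2431 and 6776 in KO-labelled libraries. All these counts and medians of the arm include Chac1, which passed the filter through its LPS libraries alone, so its rise carries no weight in them.

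Asns, asparagine synthetase, read 8.09 and 6.69 FPKM in WT_con, 6.28 and 6.27 in KO_con, 37.9 and 39.0 in WT_M1 and 48.9 and 49.5 in KO_M1. Every LPS library was above every library without LPS, and with LPS both KO-labelled libraries were above both WT libraries. The gene rose by 2.24 ± 0.08 (adjusted p = 3.52e-07) in WT and by 2.79 ± 0.08 (adjusted p = 1.45e-07) in KO-labelled libraries. Atf4 itself read 32.2 and 30.5 FPKM in WT_con, 36.6 and 36.1 in KO_con, 126 and 118 in WT_M1 and 115 and 110.2 in KO_M1, rising by 1.93 ± 0.05 (adjusted p = 8.25e-08) and 1.61 ± 0.05 (adjusted p = 2.49e-07), again with no overlap between libraries with and without LPS. Chac1 read 0.446 and 0.253 FPKM in WT_con, 0.552 and 0.247 in KO_con, 3.71 and 3.22 in WT_M1 and 6.71 and 6.12 in KO_M1, on 9 to 160 reads, so its values without LPS rest on few counts. Its change was 1.73 ± 0.14 in WT and 2.41 ± 0.14 in KO-labelled libraries. Trib3, a pseudokinase that restrains ATF4 and CHOP, read 2.21 and 2.42 FPKM in WT_con, 1.79 and 1.63 in KO_con, 7.89 and 5.91 in WT_M1 and 8.43 and 9.48 in KO_M1. It rose by 1.24 ± 0.13 (adjusted p = 9.73e-05) and 1.88 ± 0.13 (adjusted p = 1.28e-05), and no library with LPS fell into the range without it.

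Ppp1r15a (GADD34), which brings a phosphatase to eIF2alpha and so reverses the kinases, read 7.03 and 7.70 FPKM in WT_con, 9.58 and 9.90 in KO_con, 21.6 and 21.2 in WT_M1 and 26.4 and 27.7 in KO_M1. It rose by 1.42 ± 0.06 (adjusted p = 7.13e-07) in WT and 1.38 ± 0.06 (adjusted p = 1.04e-06) in KO-labelled libraries. Sesn2, a leucine sensor that restrains mTORC1, read 7.77 and 6.80 FPKM in WT_con, 5.76 and 5.41 in KO_con, 10.8 and 7.96 in WT_M1 and 11.8 and 12.3 in KO_M1. It rose by 0.99 ± 0.13 (adjusted p = 0.000441) in KO-labelled libraries, and in WT its change of 0.31 ± 0.13 did not pass (adjusted p = 0.0633). Eif2ak3 went the other way, from 6.48 ± 0.432 to 1.64 ± 0.0388 FPKM in WT and from 6.44 ± 0.00309 to 1.96 ± 0.144 in KO-labelled libraries. It fell (log2 change -1.50 ± 0.07, adjusted p = 1.72e-06 in WT, and -1.33 ± 0.07, adjusted p = 4.04e-06 in KO-labelled libraries). In WT no other member fell as far.

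Ddit3, which encodes CHOP, moved less than Atf4 itself. It ranged over 7.31 to 10.3 FPKM without LPS and 11.3 to 12.3 FPKM with it. Its deposited change of 0.28 ± 0.08 (adjusted p = 0.0149) in WT turned to -0.30 under total-read scaling (adjusted p = 0.0128) and to -0.29, -0.33 and -0.0076 under TPM, voom and quantile settings. Without WT_con 1, WT_M1 1 or WT_M1 2 the call also ended (adjusted p = 0.0555 to 0.0767). In KO-labelled libraries the change was 0.48 ± 0.08 (adjusted p = 0.0014), and it was 0.05 without passing under TPM, total-read and voom settings (adjusted p = 0.613 to 0.711). Ddit3 and its second entry overlap by 2925 bases, so reads assigned to neither cannot be told from low expression.

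The ATF6 arm split, with BiP up and several of its partners down. Of 13 members, 3 rose and 7 fell in WT (median -0.14), and 3 rose and 7 fell in KO-labelled libraries (median -0.26). Over all genes 37.7% rose and 33.9% fell in WT, and 34.7% and 31.2% in KO-labelled libraries. Scaled to total reads, Hspa5 was the 1 member that rose and 10 fell in either genotype. With that scaling 7236 of all 12137 genes tested fell in WT and 6776 in KO-labelled libraries. Hspa5 read 128 and 132 FPKM in WT_con, 139.5 and 134 in KO_con, 297 and 311 in WT_M1 and 211 and 207 in KO_M1. Both LPS groups stood above all libraries without LPS, and WT_M1 stood above KO_M1 with no overlap. Hspa5 rose by 1.22 ± 0.04 (adjusted p = 3.64e-07) in WT and 0.60 ± 0.04 (adjusted p = 1.74e-05) in KO-labelled libraries. Scaled to total reads it rose by 0.59 in WT and 0.13 in KO-labelled libraries (adjusted p = 1.7e-05 and 0.0278). Quantile normalization lowered the rise in WT to 0.12, which still passed, and turned the value in KO-labelled libraries to -0.34 (adjusted p = 0.000172).

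Pdia4, a disulfide isomerase often induced together with Hspa5, read 33.7 and 33.7 FPKM in WT_con, 32.8 and 35.9 in KO_con, 13.4 and 14.4 in WT_M1 and 13.7 and 14.0 in KO_M1. All 4 LPS libraries were below all 4 others, and the gene fell (log2 change -1.22 ± 0.06, adjusted p = 1.84e-06 in WT, and -1.25 ± 0.06, adjusted p = 2.05e-06 in KO-labelled libraries). Sdf2l1, a partner of the BiP cochaperones, read 40.9 and 40.4 FPKM in WT_con, 36.5 and 35.7 in KO_con, 16.7 and 18.5 in WT_M1 and 12.6 and 11.9 in KO_M1. It fell (log2 change -1.16 ± 0.06, adjusted p = 2.47e-06 in WT, and -1.48 ± 0.06, adjusted p = 8.71e-07 in KO-labelled libraries). Its lowest libraries were those of KO_M1. Hyou1, a nucleotide exchange factor for BiP, ranged over 26.1 to 27.8 FPKM without LPS and 14.5 to 17.8 FPKM with it. It fell (log2 change -0.82 ± 0.05, adjusted p = 1.02e-05 in WT, and -0.65 ± 0.05, adjusted p = 4.23e-05 in KO-labelled libraries).

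Calr fell (log2 change -0.50 ± 0.04, adjusted p = 2.54e-05 in WT, and -0.63 ± 0.04, adjusted p = 8.94e-06 in KO-labelled libraries), and Pdia3 fell (log2 change -0.27 ± 0.04, adjusted p = 0.000768 in WT, and -0.45 ± 0.04, adjusted p = 5.94e-05 in KO-labelled libraries). Both are part of the folding cycle for glycoproteins, and their libraries with and without LPS did not overlap. Canx (calnexin), the membrane lectin of that cycle, changed by 0.29 ± 0.04 (adjusted p = 0.000903) in WT, but by -0.31, -0.34, -0.34 and -0.64 under TPM, total-read, voom and quantile settings. Hsp90b1 (GRP94, the ER HSP90) fell by 0.36 ± 0.04 (adjusted p = 0.000141) in KO-labelled libraries. In WT its change of -0.10 ± 0.04 (adjusted p = 0.0473) ended without any single library but WT_con 1 (adjusted p = 0.0558 to 0.178). The sensor Atf6 changed by -0.14 ± 0.05 (adjusted p = 0.0342) in WT, a call that ended without any single WT or KO_con library (adjusted p = 0.0528 to 0.134), and by -0.02 ± 0.05 in KO-labelled libraries without passing. Falls were larger when scaled to total reads. Hsp90b1 in WT was -0.72 (adjusted p = 3.84e-06), and Atf6 was -0.73 in WT and -0.46 in KO-labelled libraries (adjusted p = 9.19e-06 and 0.000113).

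Manf, a secreted ER stress protein, rose by 0.58 ± 0.06 (adjusted p = 6.76e-05) and 0.49 ± 0.06 (adjusted p = 0.000218) as deposited, but its change was -0.00051 and 0.04 under total-read scaling, -0.0043 in WT with voom, and passed under neither. Its row overlaps Rbm15b on the same strand by 6511 bases and Dcaf1 on the other by 42681, so its count is uncertain. Herpud1, a ubiquitin-domain protein of ERAD that is known to answer ATF4 as well, read 6.20 and 7.41 FPKM in WT_con, 7.24 and 9.42 in KO_con, 7.75 and 8.63 in WT_M1 and 13.6 and 13.8 in KO_M1. The KO_M1 libraries stood above all others, and its rise of 0.66 ± 0.13 (adjusted p = 0.00287) in KO-labelled libraries shrank to 0.23 under total-read scaling (adjusted p = 0.146); TPM and voom settings ended it as well (adjusted p = 0.158 and 0.0688). In WT it changed by 0.24 ± 0.13 without passing. Creld2, a chaperone-like ER protein, fell by 0.26 ± 0.09 (adjusted p = 0.0434) in KO-labelled libraries, which ended without any single library other than KO_con 1 and KO_M1 1 (adjusted p = 0.0552 to 0.239). Sel1l, the adaptor of the ERAD ligase, passed in neither (0.12 ± 0.06 and -0.02 ± 0.06). Scaled to total reads, Creld2 in KO-labelled libraries was -0.71 (adjusted p = 0.000442) and Sel1l was -0.49 in WT and -0.48 in KO-labelled libraries (adjusted p = 0.000132 and 0.000177).

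In the XBP1 arm Dnajc3, Edem1 and Ern1 fell and the ERAD genes Syvn1 and Derl2 rose as deposited. Of 10 members tested, 2 rose and 4 fell in WT (median -0.02), and 2 rose and 5 fell in KO-labelled libraries (median -0.19). So 60% passed in WT and 70% in KO-labelled libraries, against 71.5% and 65.9% of all genes. Of all genes, 33.9% fell in WT and 31.2% in KO-labelled libraries. None of these rises held with total-read scaling, where 0 rose and 8 fell in either genotype. With that scaling 7236 of all 12137 genes tested fell in WT and 6776 in KO-labelled libraries. Xbp1 read 41.2 and 42.0 FPKM in WT_con, 42.1 and 41.5 in KO_con, 41.9 and 44.1 in WT_M1 and 36.0 and 33.3 in KO_M1. The WT libraries with and without LPS overlapped (0.05 ± 0.05, adjusted p = 0.458), while both KO_M1 libraries were the lowest of the 8 and the gene fell by 0.27 ± 0.05 (adjusted p = 0.00333). Xbp1 in WT was -0.57 under total-read scaling (adjusted p = 5.99e-05).

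Dnajc3 (p58IPK), an ER cochaperone known as an inhibitor of PERK and of the kinase PKR, ranged over 19.8 to 21.9 FPKM without LPS and 10.3 to 12.1 FPKM with it. It fell (log2 change -0.92 ± 0.06, adjusted p = 9.01e-06 in WT, and -0.84 ± 0.06, adjusted p = 1.86e-05 in KO-labelled libraries). Edem1, which marks misfolded glycoproteins for degradation, fell (log2 change -0.70 ± 0.05, adjusted p = 1.05e-05 in WT, and -0.58 ± 0.05, adjusted p = 3.63e-05 in KO-labelled libraries), and Ern1 fell (log2 change -0.50 ± 0.07, adjusted p = 0.000534 in WT, and -0.36 ± 0.07, adjusted p = 0.00341 in KO-labelled libraries). For these 3 genes the libraries with LPS lay below all those without it.

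Syvn1 (HRD1), the ERAD ubiquitin ligase, rose by 0.64 ± 0.06 (adjusted p = 6.18e-05) in WT and 0.37 ± 0.06 (adjusted p = 0.00123) in KO-labelled libraries. Neither passed under any of the 4 other scalings, with 0.04 and -0.08 when scaled to total reads (adjusted p = 0.549 and 0.257). Derl2, a Derlin of the same channel, rose by 0.51 ± 0.07 (adjusted p = 0.000347) and 0.38 ± 0.07 (adjusted p = 0.00187), and stood at -0.03 and -0.04 under total-read scaling (adjusted p = 0.671 and 0.66). It overlaps Mis12 on the other strand by 231 bases. Derl1 changed by -0.17 ± 0.06 (adjusted p = 0.0392) in WT, a call that ended without WT_con 2 or any single KO_con or WT_M1 library (adjusted p = 0.0525 to 0.184). Dnajb9 (ERdj4), a BiP cochaperone and classic XBP1 target, was -0.08 ± 0.07 in WT without passing and fell by 0.23 ± 0.07 (adjusted p = 0.0257) in KO-labelled libraries, which ended without KO_con 1, KO_con 2 or KO_M1 2 (adjusted p = 0.0888 to 0.101). Dnajb11 and Pdia6, a BiP cochaperone and a disulfide isomerase, passed in neither genotype as deposited. Under total-read scaling Derl1 in WT was -0.78, Dnajb9 -0.66 in WT and -0.67 in KO-labelled libraries, Dnajb11 -0.52 and -0.52, and Pdia6 -0.44 and -0.62, all of which passed.

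**Figure D2:**
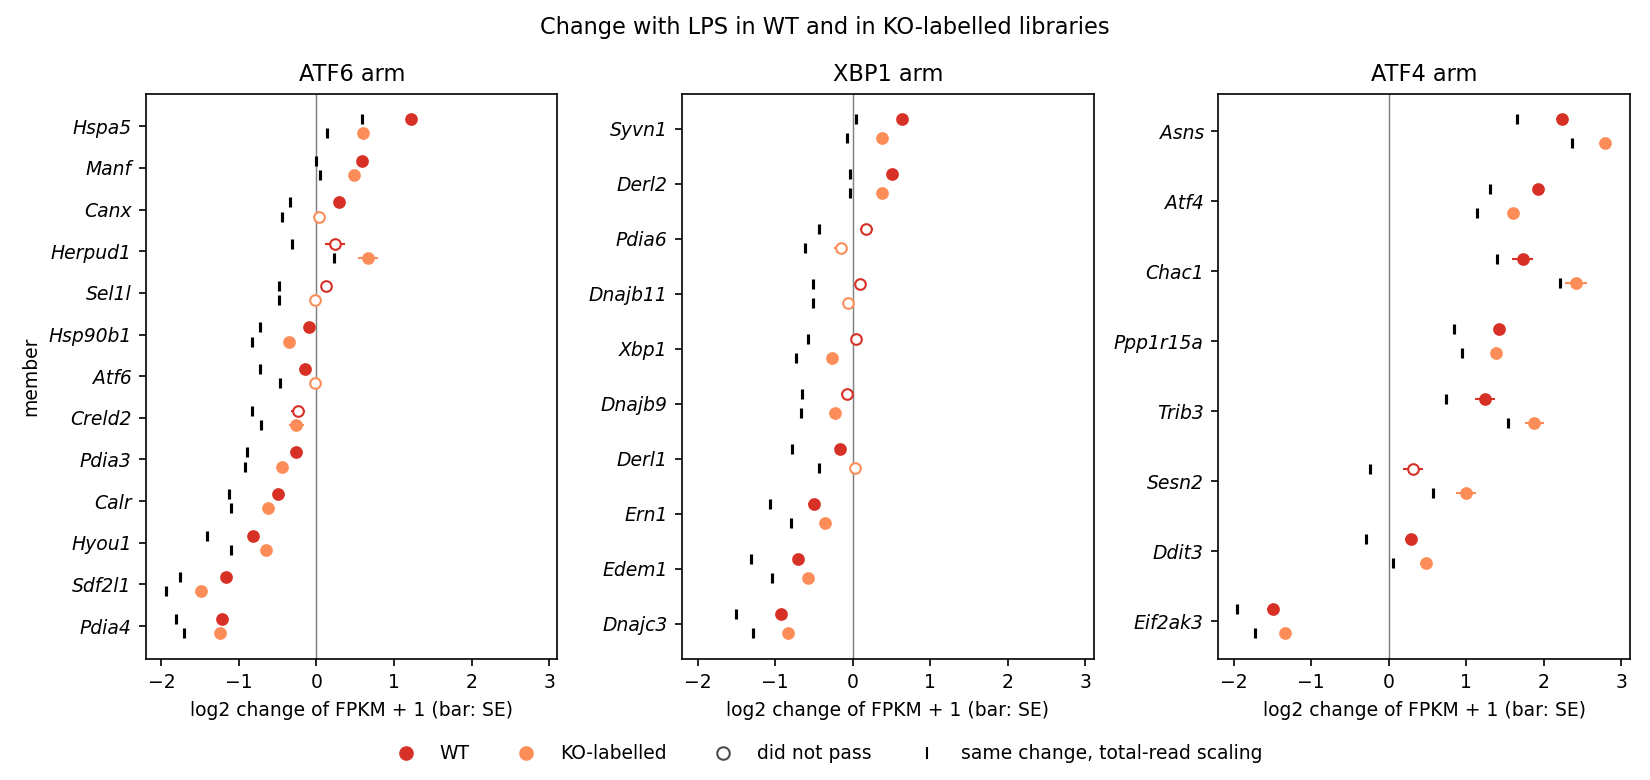
Log2 change of FPKM + 1 with LPS for each tested member, by arm, in WT (red) and KO-labelled (orange) libraries with SE bars; filled points passed, open points did not, and black ticks give the same change under total-read scaling. Asns, Atf4, Chac1, Ppp1r15a and Trib3 lie right of 0 under both scalings, and Pdia4, Sdf2l1, Hyou1, Dnajc3 and Eif2ak3 lie left of it.

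Across the arms, 23 of 31 members tested passed in WT (74.2%, against 71.5% of all genes) and 25 in KO-labelled libraries (80.6%, against 65.9%). Passing with LPS was thus common among all genes. Scaled to total reads, 6 members rose and 20 fell in WT and 7 rose and 19 fell in KO-labelled libraries. Among all 12137 genes tested with that scaling, 2454 rose and 7236 fell in WT, and 2431 and 6776 in KO-labelled libraries. Without the members known as targets of several arms, the medians in WT were -0.37 for ATF6, -0.17 for XBP1 and 1.42 for ATF4. Of 8 tested members with an ERSE, 3 rose with LPS in WT (Hspa5, Canx and Syvn1) and 3 fell (Hsp90b1, Calr and Dnajc3). The other 2 did not pass. These counts lie near the shares of all genes, 37.7% higher and 33.9% lower. Of 4 with the TGATGNAA core 3 rose (Asns, Chac1 and Trib3) and 1 did not pass. Chac1, also part of the ATF4 median, passed the filter through its LPS libraries alone, so its rise carries no weight here. Of the ERSE members' rises with LPS, those of Canx and Syvn1 did not hold under total-read scaling.

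Ratios between members within a library do not depend on any scaling by a single factor per library, though quantile normalization can change them. The pairs were chosen after their values were seen, and no test was made. Hspa5 over Pdia4 was 3.80 and 3.91 in WT_con, 4.26 and 3.74 in KO_con, 22.1 and 21.6 in WT_M1 and 15.3 and 14.8 in KO_M1, so BiP stood further above this isomerase in every LPS library. Hspa5 over Hsp90b1 was 1.55 and 1.55 in WT_con, 1.42 and 1.34 in KO_con, 3.82 and 3.96 in WT_M1 and 2.70 and 2.70 in KO_M1. Both ratios were lower in KO_M1 than in WT_M1, with no overlap. Hspa5 over Sdf2l1, in contrast, was 3.13 and 3.27 in WT_con, 3.82 and 3.77 in KO_con, 17.7 and 16.8 in WT_M1 and 16.7 and 17.4 in KO_M1, and with LPS the genotypes overlapped. Within the ATF4 arm, Asns over Eif2ak3 was 1.19 and 1.08 in WT_con, 0.974 and 0.973 in KO_con, 23.5 and 23.3 in WT_M1 and 26.4 and 24.0 in KO_M1, and Asns over Atf4 was 0.251 and 0.219 in WT_con, 0.172 and 0.174 in KO_con, 0.302 and 0.330 in WT_M1 and 0.424 and 0.449 in KO_M1. The last was above the WT range in KO_M1 and below it in KO_con. Between arms, Asns over Hspa5 was 0.0631 and 0.0507 in WT_con, 0.0450 and 0.0466 in KO_con, 0.128 and 0.125 in WT_M1 and 0.232 and 0.239 in KO_M1, highest in KO_M1.

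**Figure D3:**
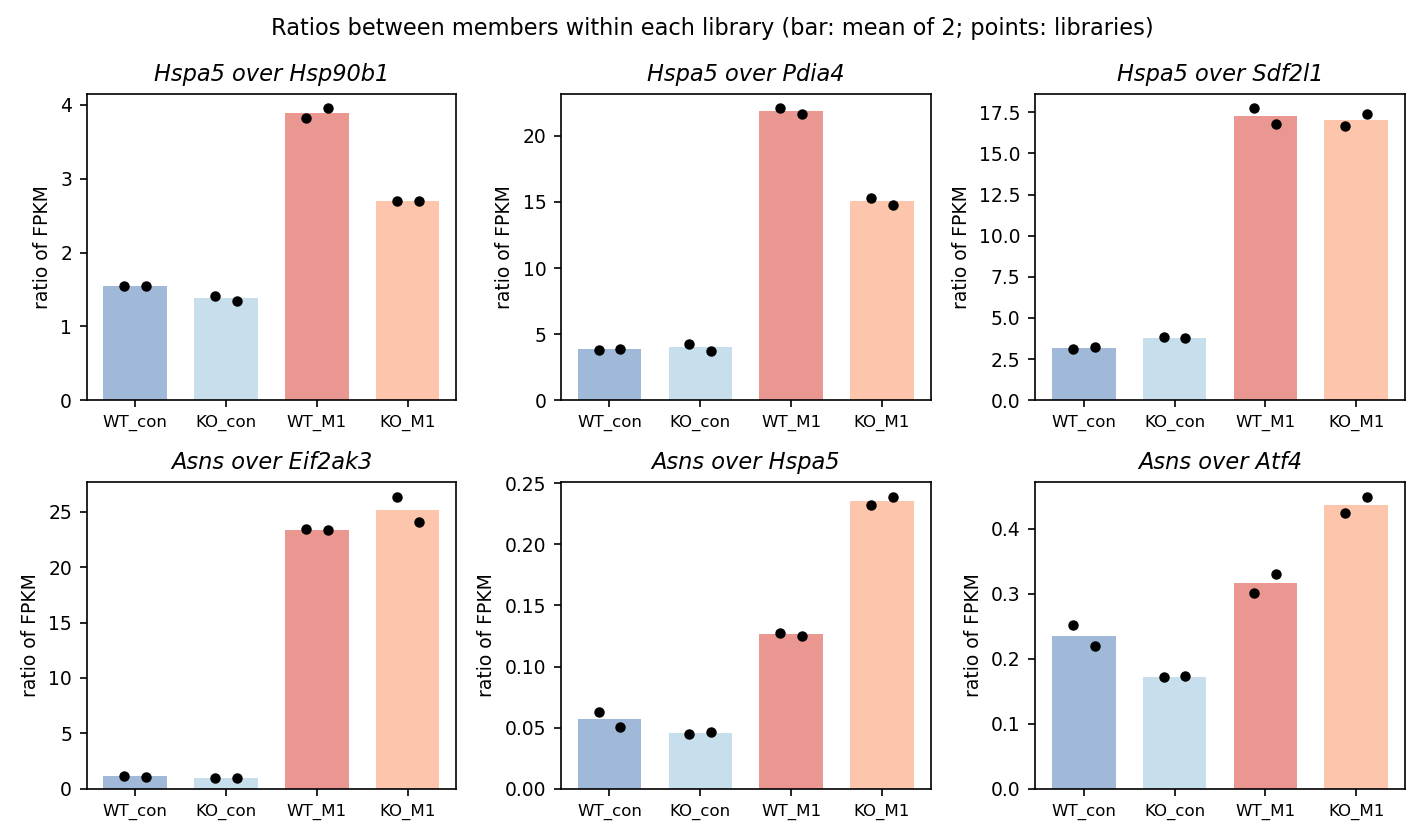
Ratio of FPKM between pairs of members within each library, by group, with bars for the mean of 2 libraries and points for each. Hspa5 over Pdia4 and over Hsp90b1 is highest in WT_M1, Asns over Hspa5 and over Atf4 is highest in KO_M1, and Hspa5 over Sdf2l1 is alike in both LPS groups.

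KO against WT without LPS asks whether the label alone goes with the stress genes. Of 31 members 2 were higher, 0 lower and 29 did not pass, so 6.45% passed against 5.64% of all genes, of which 1.72% were higher and 3.92% lower. Under total-read scaling 4 members were higher and 0 lower, and 52.0% of all calls were higher, against 30.6% as deposited. Among all 12137 genes tested with that scaling, 433 were higher and 399 lower. Ppp1r15a was higher by 0.36 ± 0.06 (adjusted p = 0.0181) and Hsp90b1 by 0.24 ± 0.04 (adjusted p = 0.0169), each with both KO_con libraries above both WT_con libraries. Both calls ended without WT_con 1, KO_con 1 or KO_con 2 (adjusted p = 0.0786 to 0.138 for Ppp1r15a and 0.0748 to 0.145 for Hsp90b1), and when only these 4 libraries were fitted (adjusted p = 0.0640 and 0.0695). The next largest differences were Sesn2 at -0.33 ± 0.13, Pdia6 at 0.31 ± 0.08, Trib3 at -0.29 ± 0.13 and Ddit3 at -0.29 ± 0.08, none of which passed. For Sesn2, Trib3 and Ddit3 both KO_con libraries were below both WT_con libraries, and for Pdia6 both were above. With 2 libraries a group such separation can easily arise without a difference, so it adds no weight, here or in any other comparison of 2 groups.

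With LPS and as deposited, members differed between the genotype labels in both directions, about as often as all genes did. Under TPM, total-read and voom settings they passed more often than all genes. Of 31 members 5 were higher (Asns, Chac1, Herpud1, Hyou1 and Ppp1r15a) and 4 lower (Hspa5, Sdf2l1, Syvn1 and Xbp1). That is 29.0%, near the 28.9% of all genes, of which 10.8% were higher and 18.1% lower. Under total-read scaling, where the median gene stood at 0.14 and 75.1% of all calls were higher against 37.4% as deposited, 18 members were higher and 3 lower. The 3 were Hspa5, Sdf2l1 and Syvn1. Thus 21 of 31 members passed with that scaling, against 4336 of all 12137 genes tested, 3255 higher and 1081 lower. TPM scaling called 17 members against 3819 of 15752 genes, voom 20 against 4707 of 11887 and quantile normalization 13 against 2952 of 11887.

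Hspa5 in KO_M1 was lower (-0.54 ± 0.04, adjusted p = 0.000281), at 209 ± 2.43 against 304 ± 10.4 FPKM, and it stayed lower under all 18 alternatives, at -0.32 under total-read scaling (adjusted p = 0.0024). Sdf2l1 was lower (-0.49 ± 0.06, adjusted p = 0.00144), which ended with voom (adjusted p = 0.0645). Syvn1 was lower (-0.40 ± 0.06, adjusted p = 0.00322), which ended under TPM scaling (adjusted p = 0.0867), and Xbp1 was lower (-0.30 ± 0.05, adjusted p = 0.00569), which ended under all 4 other scalings at -0.11 to -0.09 (adjusted p = 0.133 to 0.252).

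Herpud1 was higher in KO_M1 by 0.68 ± 0.13 (adjusted p = 0.00816), at 13.7 ± 0.165 against 8.19 ± 0.622 FPKM, and Ppp1r15a by 0.32 ± 0.06 (adjusted p = 0.00668), and both passed under all 18 alternatives. Ppp1r15a was also higher without LPS (0.36 ± 0.06, adjusted p = 0.0181). The interaction passed for neither gene, at -0.04 ± 0.08 for Ppp1r15a (adjusted p = 0.807) and 0.42 ± 0.18 for Herpud1 (adjusted p = 0.166). Asns was higher by 0.35 ± 0.08 (adjusted p = 0.0168), a call that ended without any single WT_M1 or KO_M1 library (adjusted p = 0.0628 to 0.0777) although its value stayed within 0.33 to 0.37. Chac1 was higher by 0.73 ± 0.14 (adjusted p = 0.00838), which ended without WT_M1 2 or KO_M1 1 (adjusted p = 0.0504 and 0.0533) and with a pseudocount of 0.1 (adjusted p = 0.102). Hyou1 was higher by 0.21 ± 0.05 (adjusted p = 0.0294), which ended without any single WT_M1 or KO_con library or KO_M1 2 (adjusted p = 0.0564 to 0.121). Trib3 at 0.34 ± 0.13 and Sesn2 at 0.35 ± 0.13 did not pass (adjusted p = 0.0852 and 0.0897). Atf4 was -0.11 ± 0.05 without passing (adjusted p = 0.144).

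**Figure D4:**
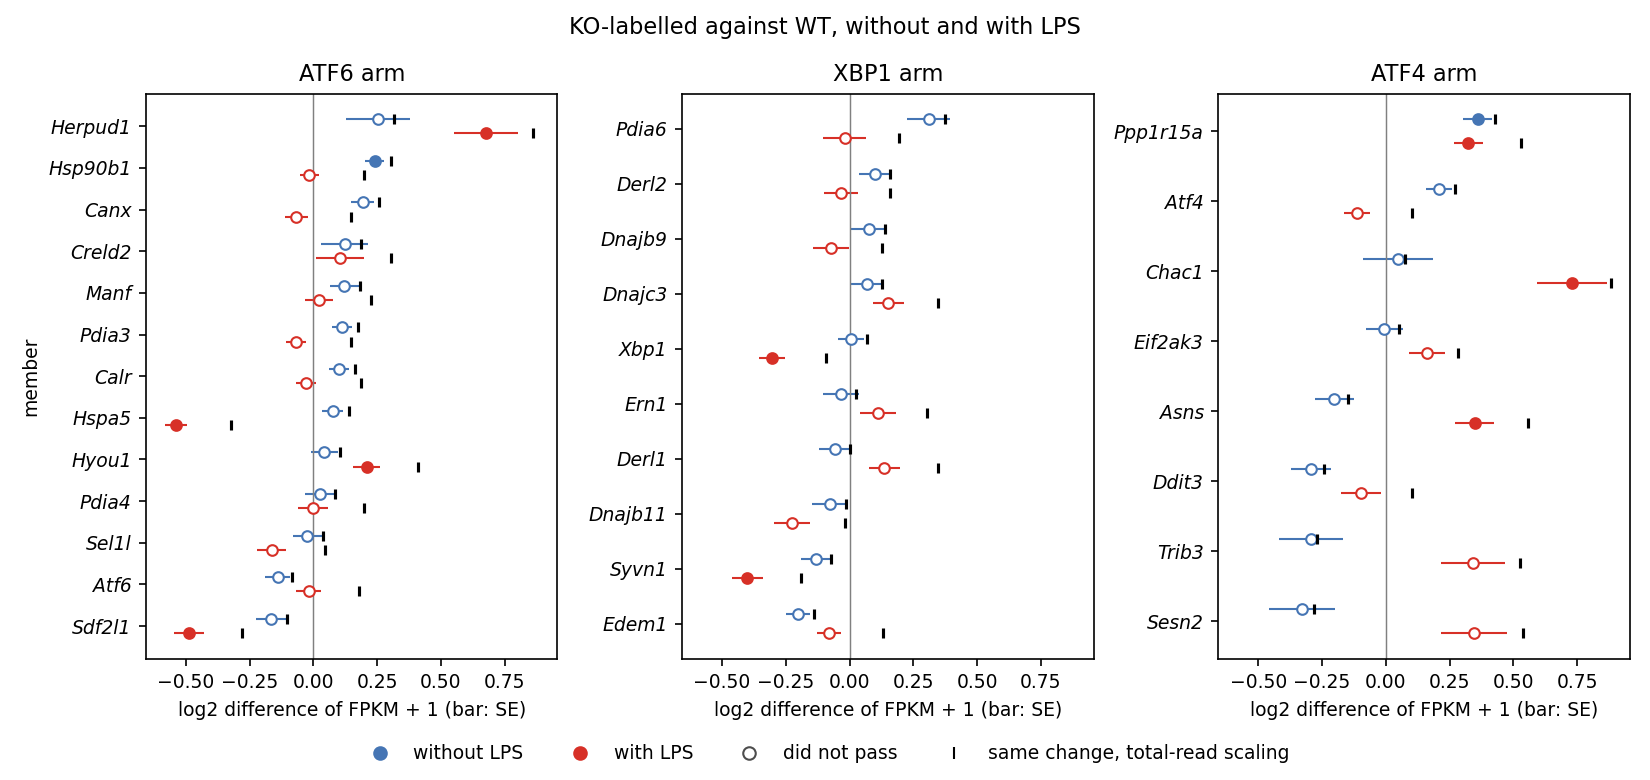
Log2 difference of FPKM + 1 between KO-labelled and WT libraries for each tested member, by arm, without LPS (blue) and with LPS (red), with SE bars; filled points passed, open points did not, and black ticks give the same difference under total-read scaling. With LPS Hspa5 lies lowest and Chac1 and Herpud1 highest, and most ticks lie right of their points.

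The interaction, the LPS change in KO-labelled libraries less that in WT, asks whether the stress genes answered LPS differently. It passed for 7 of 31 members, 1 higher and 6 lower (22.6%, against 16.0% of all genes, 5.64% higher and 10.3% lower). Scaled to total reads, 8 members were higher and 1, Hspa5, was lower, while the share of all interaction calls that were higher went from 35.3% to 63.8%. Among all 12137 genes tested with that scaling, 1280 were higher and 727 lower. Hspa5 had the lowest adjusted p, with -0.61 ± 0.06 (adjusted p = 0.00183), and it alone among the members passed in each of the 17 alternatives run for the interaction (adjusted p = 4.61e-05 to 0.0129). Asns ran the other way at 0.55 ± 0.11 (adjusted p = 0.0191), a call that ended without any single library other than those of WT_con (adjusted p = 0.0555 to 0.0682). The calls of Atf4, Canx, Hsp90b1, Sdf2l1 and Xbp1, at -0.26 to -0.32, all ended under total-read scaling, at -0.10 to -0.18, and each ended without at least 5 of the 8 single libraries. Trib3 at 0.64 ± 0.18, Chac1 at 0.68 ± 0.19 and Sesn2 at 0.68 ± 0.18 were larger than Asns but did not pass (adjusted p = 0.0561, 0.0587 and 0.0511). Their total-read values were 0.80, 0.81 and 0.82 (adjusted p = 0.0294, 0.0491 and 0.0283). Under TPM scaling none of them passed (adjusted p = 0.0587, 0.220 and 0.0673).

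Other genes of the pathway came from a list of 96 symbols in 3 groups, of which 92 are in the table and 86 were tested. With LPS in WT, 26 of 36 integrated stress response genes and ATF4 targets rose and 5 fell (median 0.95). In KO-labelled libraries 29 rose and 3 fell (median 1.02). Over all genes 37.7% rose and 33.9% fell in WT, and 34.7% and 31.2% in KO-labelled libraries. The stress-induced regulator Nupr1 (4.67 ± 0.11 in WT, 4.13 ± 0.11 in KO-labelled libraries), the cystine transporter Slc7a11 (3.28 ± 0.07 and 4.02 ± 0.07) and Eif2ak2, the double-stranded RNA kinase PKR (3.96 ± 0.08 and 3.23 ± 0.08), rose most in WT. Nupr1 was under 1 FPKM in all 4 libraries without LPS and passed the filter through its LPS libraries alone, so its rise was bound to be large and adds nothing to the count of 26. Eif2ak2 is also a known interferon target. Eif2ak4 (GCN2, the kinase that senses uncharged tRNA) fell (log2 change -1.10 ± 0.08, adjusted p = 1.8e-05 in WT, and -1.26 ± 0.08, adjusted p = 1.06e-05 in KO-labelled libraries), while Eif2ak1 (HRI, the heme-regulated kinase) was 0.0092 ± 0.06 and -0.0034 ± 0.06 without passing as deposited. Of the 4 eIF2alpha kinase genes, those of PERK and GCN2 thus fell, that of PKR rose and that of HRI did not pass. With total-read scaling, 25 of all 86 listed genes rose and 49 fell in WT, and 32 rose and 40 fell in KO-labelled libraries, against 44 and 24 and against 49 and 21 as deposited. Among all 12137 genes tested with that scaling, 2454 rose and 7236 fell in WT, and 2431 and 6776 in KO-labelled libraries.

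Folding, translocation and ERAD genes moved both ways with LPS, 15 up and 16 down of 40 in WT and 15 and 15 in KO-labelled libraries. These counts lie near the shares of all genes, 37.7% higher and 33.9% lower in WT and 34.7% and 31.2% in KO-labelled libraries. Ssr3, a subunit of the translocon-associated complex, rose by 1.58 ± 0.04 in WT, the coat protein gene Sec23b by 1.25 ± 0.06 and the oxidase Ero1l by 1.23 ± 0.07. Its paralog Ero1lb fell by 1.08 ± 0.08 (adjusted p = 2.44e-05), the signal peptidase subunit Sec11c fell by 1.07 ± 0.06 (adjusted p = 2.65e-06) and Sil1, another exchange factor for BiP, fell by 0.85 ± 0.08 (adjusted p = 7.77e-05). In the group of ATF6 processing and sensing, 3 of 10 rose and 3 fell in WT, and 5 and 3 in KO-labelled libraries. The protease genes that cut ATF6 fell, with Mbtps1 at -0.46 ± 0.06 and Mbtps2 at -0.24 ± 0.06 in WT, and Tmbim6, which restrains IRE1, rose by 1.50 ± 0.04. The Mbtps2 call ended without WT_con 2 (adjusted p = 0.0631).

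KO against WT with LPS gave 16 higher and 6 lower of 36 integrated stress response genes, against 10.8% of all genes called higher and 18.1% lower. The tRNA synthetase genes Iars (0.68 ± 0.06, adjusted p = 0.000305) and Mars (0.64 ± 0.07, adjusted p = 0.000806) and the mTORC1 inhibitor Ddit4 (1.03 ± 0.26, adjusted p = 0.0273) were the most raised, and the Ddit4 call ended without any single WT_M1 or KO_M1 library (adjusted p = 0.0672 to 0.119). Scaled to total reads, 50 of all 86 pathway genes were higher and 5 lower, against 21 and 11 as deposited. Among all 12137 genes tested with that scaling, 3255 were higher and 1081 lower. Atf3, a stress-induced partner and target of ATF4, was lower (-0.99 ± 0.04, adjusted p = 6.1e-05), followed by Ppp1r15b, a counterpart of Ppp1r15a (-0.77 ± 0.05, adjusted p = 0.000194), and the synthetase Wars (-0.63 ± 0.06, adjusted p = 0.000508). Ppp1r15b was higher with LPS, at 18.7 and 17.9 FPKM in WT_con, 18.4 and 17.1 in KO_con, 127 and 129 in WT_M1 and 72.8 and 76.9 in KO_M1. Mars lies next to Ddit3 with an overlap of 68 bases on the other strand. Among folding genes P4hb, a main disulfide isomerase, was higher by 0.34 ± 0.04 (adjusted p = 0.00135) and Sec23b was lower (-0.49 ± 0.06, adjusted p = 0.00125). Without LPS 3 of the 86 passed, 3.49% against 5.64% of all genes, so no more than the background. All 3 were lower, as were 3.92% of all genes: Edem2 (-0.33 ± 0.05, adjusted p = 0.0113), Sil1 (-0.42 ± 0.08, adjusted p = 0.0361) and the transcription factor Cebpb (-0.33 ± 0.06, adjusted p = 0.0297). All 3 calls ended without KO_con 1 or KO_con 2, and those of Sil1 and Cebpb without most other libraries as well, at an adjusted p of 0.0857 to 0.0997 for Edem2, 0.0524 to 0.187 for Sil1 and 0.0504 to 0.17 for Cebpb. The interaction passed for 9 higher and 4 lower of 36 integrated stress response genes, against 5.64% of all genes higher and 10.3% lower, led by Atf5 (0.88 ± 0.15, adjusted p = 0.0095), Iars (0.75 ± 0.08, adjusted p = 0.00218) and Slc7a11 (0.74 ± 0.09, adjusted p = 0.00381) on the higher side and Atf3 (-0.98 ± 0.06, adjusted p = 0.000699) on the lower.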

How the data were processed

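The authors deposited 1 table of FPKM for 8 libraries, with each gene's length in bases, whose unit is not FPKM. The mm10 build and DESeq2 are named in the submitters' processing notes, with no role or version. Not given in the sources used here are the aligner, the counter, strand use and the annotation. Multiplied by gene length, 100% of FPKM values above 0 came out as whole reads, to within 0.001, once divided by their library's smallest step, and reads were rebuilt so. The library size implied by FPKM was 1.21 to 1.28 times the rebuilt total without LPS and 0.784 to 0.925 times with it.

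The test was limma (version 3.58.1, R version 4.3.3) with a trend, on log2(FPKM + 1), 1 model over the 4 groups. It ran on 11887 genes, those that reached 1 FPKM in 2 or more libraries. P-values are two-sided and adjusted by Benjamini-Hochberg over all tested genes within each of 5 comparisons. The fit was checked on simulated data. Members, arms, lists and named genes (all 32 members, and the 3 largest rises and falls per list and comparison, of which some are given here) were chosen with earlier results of these data known, so lists are described by counts and medians without a test. Alternatives were a pseudocount of 0.1 or 5, no filter or a minimum of 5, TPM, total-read and quantile scaling, voom on rebuilt reads, a replicate block, models of only the libraries compared, and leaving out each library. Motifs were searched in RefSeq windows (GRCm38.p6). Counting error limits values of few reads.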

Additional observations from a re-analysis of the deposited data

Results flagged for a closer look

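The LPS change differed between the genotype labels, by the interaction term of limma, for 7 members. Hspa5 changed by -0.61 in KO-labelled libraries less WT (adjusted p = 0.00183), having risen by 1.22 ± 0.04 in WT and 0.60 ± 0.04 in KO-labelled libraries. Asns differed by 0.55 (adjusted p = 0.0191), with the larger rise in KO-labelled libraries. The other five were Sdf2l1 at -0.32 (adjusted p = 0.0455), Atf4 at -0.32 (adjusted p = 0.0266), Xbp1 at -0.31 (adjusted p = 0.0326), Canx at -0.26 (adjusted p = 0.0353) and Hsp90b1 at -0.26 (adjusted p = 0.0205). Of these, the Hspa5 call alone passed under all 17 alternatives. The calls of Sdf2l1, Atf4, Xbp1, Canx and Hsp90b1 ended under each of the 4 other scalings and without 5 to 7 of the 8 single libraries, and that of Asns ended without 6. Over all genes 16.0% passed this test. Groups of 2 libraries are too small to look for outlying libraries.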

How the results depend on the processing

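Of 66 member calls, 36 kept their direction and passed under every alternative run for them (18, or 17 for the interaction). With total-read scaling 50 of the 66 passed in the same direction, with TPM 49, with voom 49 and with quantile normalization 55. The members that changed sign did so in the scalings. Hspa5 with LPS in KO-labelled libraries stood at -0.34 with quantile normalization. With LPS in WT, Canx stood at -0.31 (TPM), -0.34 (total reads), -0.64 (quantile) and -0.34 (voom), Ddit3 at -0.29, -0.30, -0.0076 and -0.33, Derl2 at -0.012, -0.033 and -0.042 (TPM, total reads, voom), and Manf at -0.00051 (total reads) and -0.0043 (voom). In KO-labelled libraries Syvn1 stood at -0.080, -0.077 and -0.085 and Derl2 at -0.039, -0.035 and -0.044 (TPM, total reads, voom). The cause was not tested. Members passing without LPS between genotypes, 2 as deposited, were 5 at an FPKM minimum of 5, 5 with TPM, 4 with total reads, 8 with quantile normalization, 9 with voom and 1 with only the libraries compared. Over all genes, 671 of 11887 passed as deposited. In the order above, 697 of 7102, 557 of 15752, 832 of 12137, 830 of 11887, 1900 of 11887 and 327 of 10768 did. With LPS, 9 members became 17 (TPM), 21 (total reads) and 20 (voom). All-gene calls went from 3438 of 11887 to 3819 of 15752, 4336 of 12137 and 4707 of 11887. For the interaction, 7 members became 2 (no filter), 2 (TPM) and 4 (quantile). All-gene calls went from 1900 of 11887 to 1300 of 25719, 1403 of 15752 and 1499 of 11887. Other pathway genes went from 3 without LPS to 1 (no filter), 8 (voom) and 1 (only the libraries compared), from 32 with LPS to 49, 55 and 57 (TPM, total reads, voom), and from 16 for the interaction to 31 and 39 (total reads, voom). Without LPS and with no filter, 453 of all 25719 genes passed. For the interaction 2007 of 12137 (total reads) and 2636 of 11887 (voom) did. Arm medians are given less that of all genes. For ATF6 with LPS, -0.18 in WT became -0.36 (FPKM minimum 5), -0.51 (quantile) and -0.41 (without shared members), -0.28 in KO-labelled libraries became -0.41, -0.66 and -0.46, and 0.0047 between genotypes with LPS became 0.16 (quantile). For XBP1, -0.05 in WT became -0.23 (FPKM minimum 5), -0.14 (total reads), -0.48 (quantile) and -0.21 (without shared members), -0.21 in KO-labelled libraries became -0.35 (FPKM minimum 5) and -0.48 (quantile), and -0.13 for the interaction became 0.10 (without shared members). For ATF4, 1.29 in WT became 1.48 and 0.66 (pseudocounts 0.1 and 5), 1.12 (FPKM minimum 5), 1.41 (TPM) and 1.50 (voom), 1.48 in KO-labelled libraries became 1.06 (pseudocount 5), 1.34 (FPKM minimum 5) and 1.12 (quantile), and 0.39 for the interaction became 0.56 (without shared members).

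Leaving out each library in turn, with the lone library of its group assumed to vary like the others, gave 19 to 25 members with LPS in WT, 23 to 26 in KO-labelled libraries, 0 to 3 between genotypes without LPS, 6 to 9 with LPS and 1 to 5 for the interaction. Other pathway genes numbered 60 to 69, 61 to 71, 0 to 3, 25 to 34 and 11 to 21. Arm medians in the same order were -0.21 to -0.15, -0.39 to -0.18, 0.07 to 0.12, -0.03 to 0.02 and -0.14 to -0.09 for ATF6. They were -0.06 to -0.03, -0.30 to -0.10, -0.01 to 0.0071, -0.08 to 0.01 and -0.15 to -0.05 for XBP1, and 1.20 to 1.40, 1.46 to 1.48, -0.15 to -0.01, 0.19 to 0.38 and 0.34 to 0.44 for ATF4. Libraries that share a number did not deviate together (r = -0.0770 to 0.0334 over genes). That cannot tell whether they came from the same mouse or batch, which the labels do not give. With the number as a replicate block 59 of 66 member calls passed, and 1 other pathway gene passed between genotypes without LPS. The interaction then passed for 3 members higher and 3 lower, against 1 and 6 without the block. Over all 11887 genes it passed for 559 higher and 1087 lower, against 671 and 1229 without the block. With 2 libraries a group, calls near the threshold can turn on single libraries, and low counts limit Chac1 and Derl3.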
